A study of Homo sapiens with 6 samples.

Results

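The genes described here are 32 genes of the G1/S transition and of DNA replication, chosen by name, in HaCaT cells treated with palmatine and in control HaCaT cells. All 32 symbols were found among the 20035 genes of the deposited table, and all 32 were among the 12356 genes left after a filter on low counts. HaCaT is an immortalized human keratinocyte line, and palmatine is a protoberberine alkaloid from plants. Poly(A) RNA was sequenced from 3 samples labelled palmatine and from 3 samples labelled control, all with the genotype label WT. The series describes a psoriasis-like model in which the keratinocytes received the cytokine IL-17 before palmatine. For the control samples the treatment is labelled none, and whether IL-17 was added to them is not stated. Neither dose nor duration is given by the labels. All samples are of 1 cell line, and nothing states that replicates were separate cultures. The p-values then set the group difference only against the spread among these samples, and part of that spread may be technical.

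A cell that leaves G1 phase does so when cyclin-dependent kinases phosphorylate the RB family and release E2F transcription factors. E2F then drives a set of genes whose products load the MCM2-7 helicase at origins, activate it, copy the DNA, supply deoxynucleotides and package the new strands. In the epidermis these genes are expressed by the dividing keratinocytes of the basal layers, a compartment that is enlarged in psoriatic plaques, and they are widely used as markers of proliferation.

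Total counts ran from 12908646 to 17218171 per library, and the scaling factors from 0.970 to 1.04. The 32 genes had between 124 and 9071 counts in a library. The first principal component of all tested genes held 51.0% of the variance. Its values were -19.9, 4.55 and -13.4 in palmatine libraries 1, 2 and 3. In control libraries 1, 2 and 3 they were -5.8, 10.6 and 24.0. Palmatine thus leaned to its negative and control to its positive side, with palmatine 2 and control 1 on the side of the other group. All 15 keratinocyte markers of a list passed the filter, with summed levels of 12103 to 12779 CPM in palmatine and 12215 to 12496 CPM in control libraries (CPM is a gene's count relative to the scaled library size). Markers of other cell types were low. Their sums were 4.17 to 5.88 CPM in palmatine and 2.64 to 5.08 CPM in control libraries for fibroblasts, and 1.5 to 1.63 CPM in palmatine and 0.770 to 1.28 CPM in control libraries for leukocytes. They were 6.59 to 7.24 CPM in palmatine and 5.54 to 7.43 CPM in control libraries for melanocytes, and 6.37 to 8.22 CPM in palmatine and 6.95 to 7.22 CPM in control libraries for endothelium. COL1A2, POSTN, TYR, DCT, CD3D, CD2, CD68 and KDR had no count in any library. The leukocyte sums were higher in every palmatine library than in any control library; their part in the results below was not tested.

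None of the 32 genes passed the test between palmatine and control cells, and their levels lay close together in all 6 libraries. The edgeR quasi-likelihood test with Benjamini-Hochberg adjustment over all tested genes called 0 of the 32 at an adjusted p of 0.05, where it called 0.0405% of all tested genes (5 genes, all lower in palmatine). At an unadjusted p of 0.05, edgeR counted 0 of the 32, against 9.82% of all tested genes. DESeq2 counted 0 of the 32 at an adjusted p of 0.05, against 0.113% of all tested genes, and 0 at an unadjusted p of 0.05, against 8.22%. For limma-voom both counts were also 0 of the 32, against 0.0405% and 10.2% of all tested genes. In edgeR without palmatine 2 the unadjusted count was 6 of the 32, of which 1 was higher, against 26% of all tested genes. Without control 1 it was 4 of the 32, of which 2 were higher, against 21.9% of all tested genes. Both counts are below the share of all genes in the same fit. The log2 fold changes of palmatine over control ran from -0.20 for GINS2 to 0.22 for E2F2, which are folds of 0.873 and 1.17. Their median was -0.02, beside -0.00 over all tested genes, and 21 of the 32 were negative, where 50.4% of all tested genes were. In RNA from whole cultures, a different share of S-phase cells and a different amount of RNA per S-phase cell cannot be told apart.

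The 95% intervals describe each gene alone and are not adjusted for the number of genes tested. The 1.5-fold and 1.2-fold limits were set after the data were seen. For all 32 genes the 95% interval of the fold change lay within 1.5-fold either way, where it did for 79.4% of all tested genes. For 18 of the 32 it lay within 1.2-fold either way, where it did for 26.2% of all tested genes. Those 18 include ORC1, CDC6, CDT1 and 5 of the 6 MCM2-7 subunits, while MCM7, E2F2, GINS2, PCNA, FEN1, TK1 and BRCA1 are among the 14 with wider intervals. The median standard error of the 32 log2 fold changes was 0.0783, against 0.102 over all tested genes. These genes were also more abundant than most: their median level was 19.0 FPKM (fragments relative to gene length and to the library's total), against 5.74 FPKM over all tested genes, and 28 of the 32 lay above that figure.

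**Figure D1:**
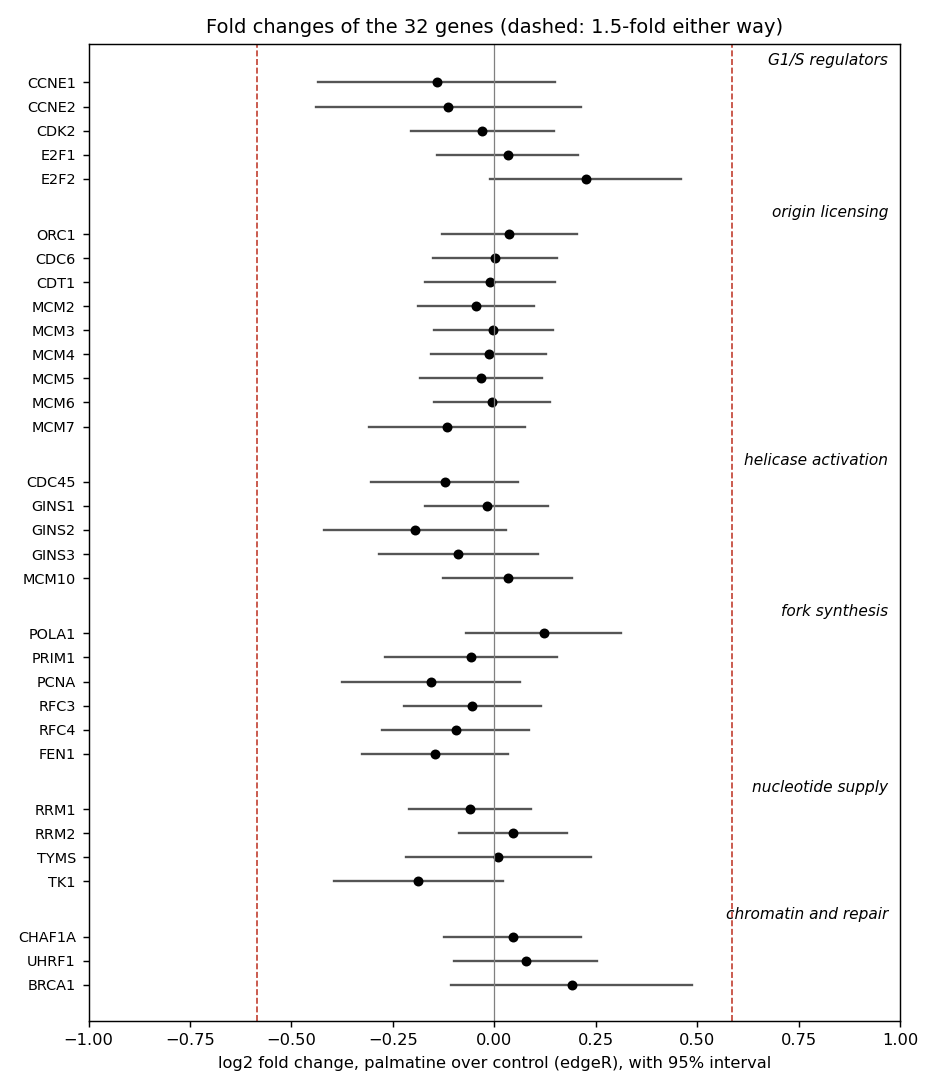
Log2 fold change of palmatine over control for each of the 32 genes, in order of role, with its 95% interval from the edgeR quasi-likelihood fit (points and bars; 3 libraries per group). All intervals lie within 1.5-fold either way (dashed lines), and the points run from -0.20 for GINS2 to 0.22 for E2F2.

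A sequence feature found in most, not all, of these genes is an E2F motif near the transcription start. The motif was searched as TTCCCGC and in the related form TTCGCGC, besides the forms TTGCCGC and also TTGGCGC, on both strands, from 250 bases before to 50 bases after each start in RefSeq (GRCh38.p14), and a gene was counted if any of its starts had a match. Of the 28 members in the promoter table, 24 had a match (85.7%), against 25.1% of the 10039 tested genes in it. CCNE2, CDK2, MCM4 and MCM5 were not matched to the table. In a list of G2/M and mitosis genes, 5 of 19 had an E2F match (26.3%). CCNE1, CDC45, MCM10 and FEN1 had none in this window. Of the 43 matches, 23 began within 60 bases before the start. The CCAAT box of NF-Y was matched in 19 of the 28 members (67.9%), in 16 of the 19 G2/M genes (84.2%) and in 43.5% of tested genes. The CHR element TTTGAA, known from promoters of mitotic genes, was matched in 1 of the 28 (3.57%), namely RRM1, in 14 of the 19 G2/M genes (73.7%) and in 13.9% of tested genes. No motif contains another, but E2F matches on opposite strands can overlap, as in MCM2. A match describes the sequence and is not evidence of binding.

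The 4 promoters below belong to the 4 members with the smallest p in the comparison that had an E2F match, and they show how near the start it lies. Each is the 150 bases before the start, read 5′ to 3′ on the gene's own strand, with the E2F match in capitals. All 4 genes lie on the minus strand of GRCh38.p14, and the first base of the match is 41 bases before the start in E2F2, 12 in TK1, 31 in GINS2 and 59 in PCNA. In TK1, GINS2 and PCNA the match reads GCGGGAA, which is TTCCCGC on the opposite strand.
E2F2, chr1:23531234-23531383: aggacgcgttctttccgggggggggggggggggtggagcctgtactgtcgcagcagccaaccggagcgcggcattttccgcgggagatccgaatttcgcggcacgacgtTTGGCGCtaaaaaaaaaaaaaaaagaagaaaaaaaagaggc
TK1, chr17:78187053-78187202: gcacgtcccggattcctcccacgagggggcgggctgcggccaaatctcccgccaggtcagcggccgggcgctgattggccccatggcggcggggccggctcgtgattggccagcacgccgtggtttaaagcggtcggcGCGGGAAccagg
GINS2, chr16:85688955-85689104: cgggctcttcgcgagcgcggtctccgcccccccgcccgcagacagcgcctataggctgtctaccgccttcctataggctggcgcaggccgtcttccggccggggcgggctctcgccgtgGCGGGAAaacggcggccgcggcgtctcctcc
PCNA, chr20:5126623-5126772: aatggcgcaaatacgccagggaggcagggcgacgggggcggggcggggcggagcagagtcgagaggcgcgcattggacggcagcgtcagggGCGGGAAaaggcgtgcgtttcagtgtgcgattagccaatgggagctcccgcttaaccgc

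**Figure D2:**
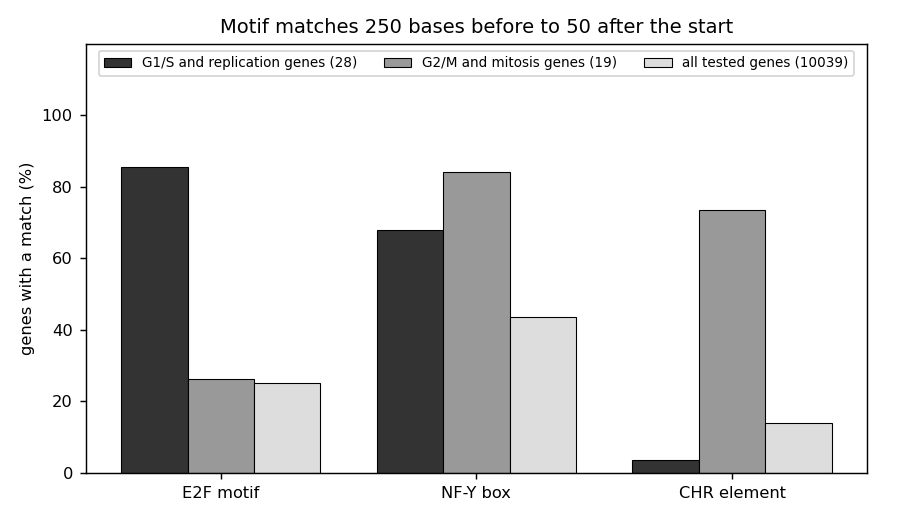
Percentage of genes with a match to the E2F motif, the NF-Y box (CCAAT) and the CHR element (TTTGAA) between 250 bases before and 50 bases after a start, for the 28 G1/S and replication genes, 19 G2/M and mitosis genes and 10039 tested genes in the RefSeq promoter table. The E2F motif was matched in 85.7% of the G1/S and replication genes and 26.3% of the G2/M genes, and the CHR element in 3.57% and 73.7%.

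Among the 5 G1/S regulators, E2F2 had the highest and CCNE1 the lowest log2 fold change, neither past the test. E2F2, an activator E2F, had 36.4, 33.0 and 33.2 CPM in palmatine libraries 1, 2 and 3, and 32.6, 30.3 and 24.9 CPM in control libraries 1, 2 and 3. Every palmatine library was above every control library, and control 3 lay below the rest. The difference was 0.22 on the log2 scale (SE 0.105, 95% interval -0.01 to 0.46, adjusted p = 0.455 in edgeR), the highest of the 32. CCNE1, the cyclin that activates CDK2 at the end of G1, had 8.63, 9.33 and 10.6 CPM in palmatine and 9.55, 9.89 and 12.1 CPM in control libraries. The groups overlapped, and the log2 fold change was -0.14 (SE 0.130, adjusted p = 0.605 in edgeR). Its paralog CCNE2 was at 11.7 ± 0.452 CPM in palmatine and 12.7 ± 2.71 CPM in control cells (SD, n = 3 each). The kinase partner CDK2 was at 47.8 ± 3.26 CPM in palmatine and 48.7 ± 1.84 CPM in control cells (SD, n = 3 each). E2F1, itself an E2F target, was at 34.2 ± 2.14 CPM in palmatine and 33.4 ± 0.399 CPM in control cells (SD, n = 3 each), a log2 fold change of 0.03 with a 95% interval of -0.14 to 0.21.

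Non-overlapping groups were seen for 2 of the 32 genes, E2F2 and RRM2, both higher in palmatine, against 12.4% of all tested genes in either direction. Palmatine was above control without overlap in 6.68% and below it in 5.71% of all tested genes. RRM2, named here after its values were seen, is the regulated small subunit of ribonucleotide reductase. It had 234, 241 and 237 CPM in palmatine and 233, 232 and 225 CPM in control libraries, and its log2 fold change was 0.05 (edgeR adjusted p = 0.728). Its lowest palmatine and its highest control library lay closer together than the SD of either group (3.54 CPM in palmatine and 4.24 CPM in control cells).

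**Figure D3:**
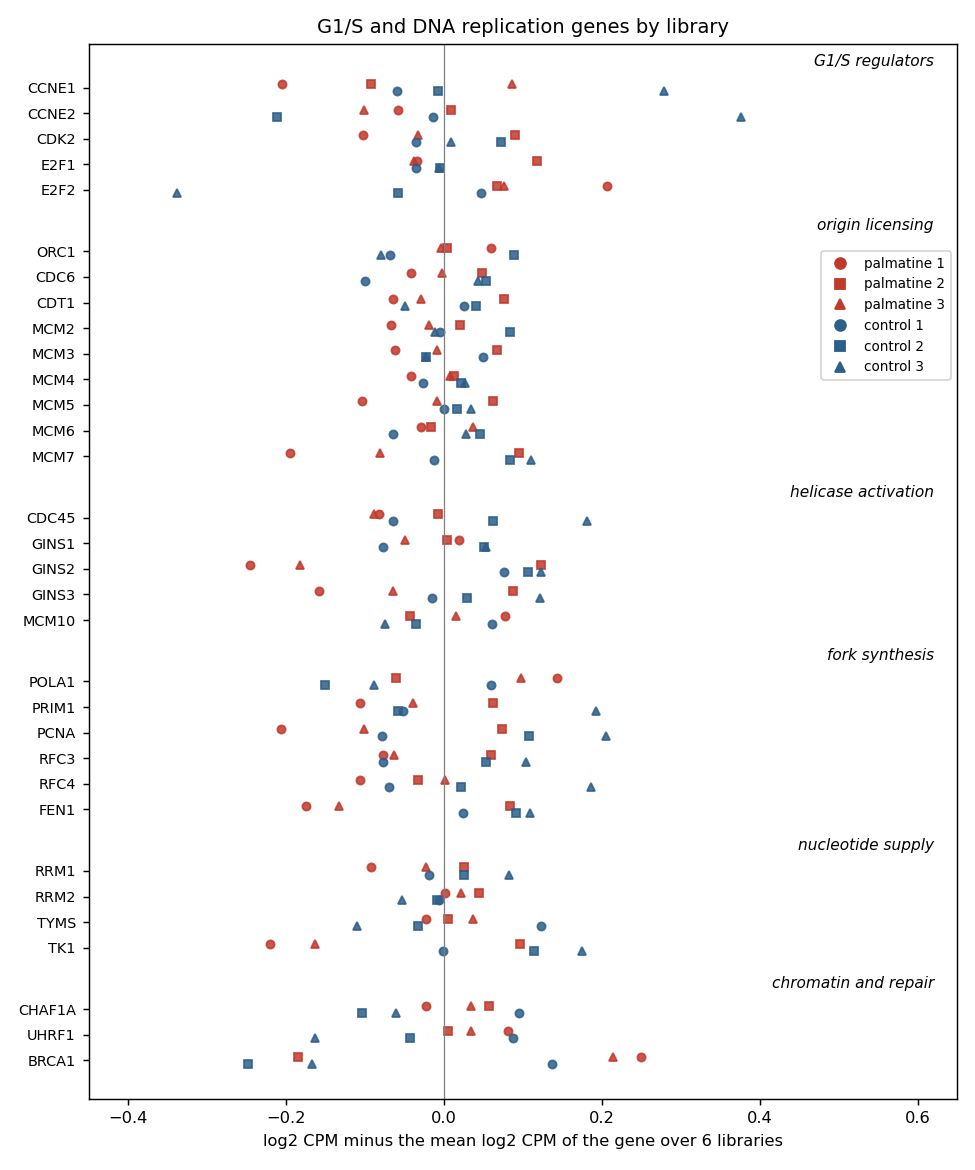
Level of each of the 32 genes in each library, as log2 CPM minus the mean of that gene over the 6 libraries, by role (red, palmatine above; blue, control below; the marker shape gives the replicate number). Palmatine and control points are intermixed for all genes but E2F2 and RRM2, and E2F2 has 36.4, 33.0 and 33.2 CPM in palmatine and 32.6, 30.3 and 24.9 CPM in control libraries.

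The 9 origin licensing genes were nearly level between the groups, with log2 fold changes from -0.12 (MCM7) to 0.04 (ORC1) and a median of -0.01. ORC1, the large subunit of the origin recognition complex, was at 59.6 ± 1.42 CPM in palmatine and 58.0 ± 3.84 CPM in control cells. CDC6 and CDT1, which load the helicase at ORC-bound origins, were at 202 ± 6.37 and 65.4 ± 3.35 CPM in palmatine, and at 202 ± 11.8 and 65.9 ± 2.19 CPM in control cells (SD, n = 3 each). The 6 subunits of the MCM2-7 helicase ring followed the same pattern. MCM2 had 174, 184 and 179 CPM in palmatine and 181, 193 and 180 CPM in control libraries. MCM3 had 238, 261 and 247 CPM in palmatine and 258, 245 and 245 CPM in control libraries. MCM4 had 415, 431 and 429 CPM in palmatine and 419, 434 and 435 CPM in control libraries. These 3 subunits overlapped between groups and had log2 fold changes of -0.04, -0.00 and -0.01. MCM5 had 129, 145 and 138 CPM in palmatine and 139, 141 and 142 CPM in control libraries. MCM6 had 167, 169 and 175 CPM in palmatine and 163, 176 and 174 CPM in control libraries. MCM7 had 361, 442 and 391 CPM in palmatine and 410, 438 and 446 CPM in control libraries, with palmatine 1 the lowest and palmatine 2 inside the range of the control libraries. The MCM7 log2 fold change of -0.12 was the farthest from 0 of the 6 (SE 0.0854, 95% interval -0.31 to 0.08, adjusted p = 0.533 in edgeR). Summed over the ring, the level was 1559 ± 73.4 CPM in palmatine and 1607 ± 31.5 CPM in control cells (SD, n = 3 each).

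The 5 genes of helicase activation had a median log2 fold change of -0.09, and 4 of them were negative. GINS2, a subunit of the GINS complex that joins CDC45 and MCM2-7 in the active helicase, had 46.2, 59.6 and 48.3 CPM in palmatine and 57.7, 59.0 and 59.6 CPM in control libraries. Palmatine 1 and 3 lay below all control libraries, and palmatine 2 was level with the highest of them. Its log2 fold change of -0.20 (SE 0.0996, 95% interval -0.42 to 0.03, adjusted p = 0.455 in edgeR) was the lowest of the 32. CDC45 had 55.2, 58.1 and 54.9 CPM in palmatine and 55.9, 61.0 and 66.2 CPM in control libraries, and its log2 fold change was -0.12 (edgeR adjusted p = 0.500). GINS1 was at 112 ± 2.81 CPM in palmatine and 114 ± 5.84 CPM in control cells, and GINS3 at 37.1 ± 3.21 CPM in palmatine and 39.4 ± 1.92 CPM in control cells (SD, n = 3 each). MCM10, which acts when the helicase starts to unwind, was at 74.9 ± 3.10 CPM in palmatine and 73.3 ± 3.56 CPM in control cells (SD, n = 3 each).

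Of the 6 genes of DNA synthesis at the fork, 5 had negative log2 fold changes and the exception was POLA1, with a median of -0.08. PCNA, the sliding clamp of the replicative polymerases and the most abundant of the 32 per length at 391 FPKM, had 475, 576 and 510 CPM in palmatine and 519, 590 and 631 CPM in control libraries. FEN1, the flap endonuclease that trims Okazaki fragments, had 146, 174 and 150 CPM in palmatine and 167, 175 and 177 CPM in control libraries. In both genes palmatine 1 and 3 lay below all control libraries and palmatine 2 lay within their range. The log2 fold change was -0.16 for PCNA (95% interval -0.38 to 0.06, adjusted p = 0.485 in edgeR) and -0.15 for FEN1 (95% interval -0.33 to 0.03, adjusted p = 0.459). POLA1, the catalytic subunit of DNA polymerase alpha, was at 69.7 ± 5.07 CPM in palmatine and 64.1 ± 4.85 CPM in control cells (SD, n = 3 each), a log2 fold change of 0.12. Its primase partner PRIM1 was at 30.5 ± 1.80 CPM in palmatine and 31.7 ± 3.24 CPM in control cells (SD, n = 3 each). The clamp loader subunits RFC3 and RFC4 were at 111 ± 5.87 and 80.1 ± 3.03 CPM in palmatine, and at 116 ± 7.39 and 85.5 ± 7.74 CPM in control cells (SD, n = 3 each).

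Among the 4 genes of nucleotide supply, TK1 stood lowest. TK1, the S-phase thymidine kinase of the salvage pathway, had 156, 195 and 163 CPM in palmatine and 182, 197 and 206 CPM in control libraries. As with GINS2 and PCNA, palmatine 1 and 3 were below every control library and palmatine 2 was not. Its log2 fold change was -0.19 (SE 0.0928, 95% interval -0.40 to 0.02, adjusted p = 0.455 in edgeR). RRM1, the large subunit of ribonucleotide reductase, had 340, 369 and 357 CPM in palmatine and 358, 369 and 384 CPM in control libraries, and its log2 fold change was -0.06 (edgeR adjusted p = 0.677). TYMS, which makes thymidylate, was at 11.4 ± 0.237 CPM in palmatine and 11.4 ± 0.945 CPM in control cells (SD, n = 3 each).

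The 3 genes of chromatin and repair were the one role in which every log2 fold change was positive, from 0.04 to 0.19. BRCA1, which acts in homologous recombination and fork protection, had 162, 120 and 158 CPM in palmatine and 150, 115 and 121 CPM in control libraries. Both groups were split, with palmatine 2 near controls 2 and 3 and control 1 near palmatine 1 and 3. The log2 fold change of 0.19 came with the widest spread of the 32 over the 6 libraries (95% interval -0.11 to 0.49, adjusted p = 0.515 in edgeR). UHRF1, which recruits the maintenance DNA methyltransferase to replicated DNA, had 94.4, 89.6 and 91.3 CPM in palmatine and 94.8, 86.6 and 79.7 CPM in control libraries (log2 fold change 0.08, adjusted p = 0.647 in edgeR). CHAF1A, the large subunit of the histone chaperone CAF-1, ran from 72.0 to 76.1 CPM in palmatine and from 68.0 to 78.1 CPM in control libraries.

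The same libraries were high or low across many of the genes. Libraries also differed across all tested genes, where palmatine 1 and control 3 were the ends of the first principal component (-19.9 and 24.0). The counts below were not set beside those over all tested genes, so they cannot be read as particular to the 32. Within the palmatine group, palmatine 1 had the lowest level for 22 of the 32 genes and palmatine 2 the highest for 21. Palmatine 1 was below the control mean for 24 genes and palmatine 3 for 21, while palmatine 2 was above it for 19. The median over the 32 genes of log2 CPM, centred per gene, was -0.06, 0.05 and -0.01 in palmatine libraries 1, 2 and 3, and -0.01, 0.02 and 0.03 in control libraries 1, 2 and 3. Averaged, that is -0.01 ± 0.05 in palmatine and 0.01 ± 0.02 in control cells (SD, n = 3 each), a difference smaller than the spread among palmatine libraries.

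Single libraries moved the fold changes of the genes listed next by more than 1.5 times, and no call depended on them. The list leaves out POLA1 and CCNE2, at 0.12 and -0.11 relative to the median gene with all libraries. CCNE2 changed sign without control 3. Relative to the median gene, the log2 fold change of BRCA1 was 0.32 without palmatine 2 and 0.31 without control 1, but 0.11 without palmatine 1 and 0.12 without control 2. GINS2 was at -0.32 without palmatine 2 and -0.12 without palmatine 1, and TK1 at -0.29 without palmatine 2 and -0.12 without palmatine 1. PCNA and FEN1 were at -0.24 and -0.23 without palmatine 2, and both at -0.09 without palmatine 1. MCM7 was at -0.20 without palmatine 2 and -0.05 without palmatine 1. E2F2 was at 0.12 without control 3 and 0.31 without control 1, and CCNE1 at -0.04 without control 3 and -0.22 without palmatine 3. CDC45 was at -0.06 and UHRF1 at 0.02 without control 3, and they were at -0.18 and 0.14 without control 1. For BRCA1, GINS2, TK1, PCNA, FEN1 and MCM7, palmatine 1 and palmatine 2 were the extremes of the palmatine group. Leaving out the one or the other therefore had to move the value in opposite directions.

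The fold changes within the group followed gene length. Across the 32 genes, which are not independent replicates and share the same 6 libraries, the Spearman correlation of log2 fold change with length was 0.564, and across all tested genes it was 0.443. The 8 shortest genes, PCNA, TK1, FEN1, TYMS, CCNE1, E2F1, CDT1 and PRIM1, of up to 2855 bases, had a median log2 fold change of -0.10. The 8 longest, from MCM10 at 5456 bases to POLA1 at 15547 bases, had a median of 0.04. These are deposited lengths, and for some genes they far exceed the principal transcript in GENCODE 29. That transcript has 5486 bases for POLA1, and 3431 bases for RRM2 against a deposited 9153. The relation with principal transcript lengths was not tested. The medians of the 8 shortest genes, centred per gene on the log2 scale, were -0.14, 0.07 and -0.04 in palmatine libraries 1, 2 and 3, and -0.02, 0.02 and 0.14 in control libraries 1, 2 and 3. Palmatine 1 and control 3 were thus the extremes. With a smooth length trend removed from each library, the median log2 fold changes of the 8 shortest and 8 longest genes were 0.04 and -0.01. The correlation was then -0.233 across the 32 genes and -0.016 across all tested genes. That fit takes out any difference that follows length, whatever its source, so the loss of the relation over all tested genes was built into it. In that fit 16 of the 32 were negative. Some log2 fold changes lay nearer to 0, at -0.03 for TK1, -0.02 for FEN1, 0.04 for PCNA and 0.08 for BRCA1. Others lay farther from 0, at 0.13 for E2F1, 0.13 for TYMS, 0.12 for ORC1 and -0.10 for MCM4. GINS2 was still the lowest of the 32, at -0.13, and E2F2 the highest, at 0.22 (adjusted p = 0.469 in edgeR). E2F2 was the 1 member of 32 at an unadjusted p of 0.05, against 10.4% of all tested genes in that fit. The cause of the length relation was not tested.

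**Figure D4:**
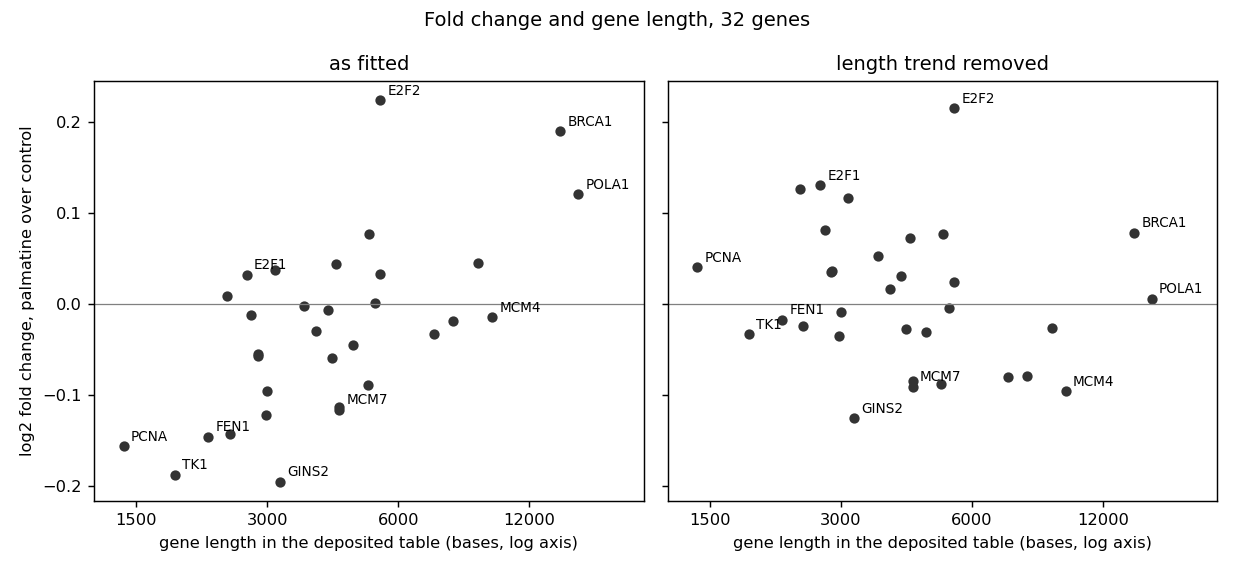
Log2 fold change of palmatine over control for the 32 genes against deposited gene length (log axis). The left panel is as fitted, and the right has a smooth length trend removed from each library. On the left the short genes PCNA and TK1 lie at -0.16 and -0.19 and the long gene BRCA1 at 0.19; on the right they lie at 0.04, -0.03 and 0.08, while E2F2 stays at 0.22.

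Levels of subunits of one complex were compared per length, as FPKM over all 6 libraries. By the deposited gene lengths, MCM7 was the highest MCM2-7 subunit at 94.4 ± 6.10 FPKM, followed by MCM3 at 68.3 ± 2.65, MCM4 at 43.4 ± 0.925, MCM6 at 41.3 ± 1.39, MCM2 at 38.6 ± 1.09 and MCM5 at 19.1 ± 0.595 FPKM (SD, n = 6). Of these neighbours, MCM4 and MCM6 did not differ beyond their spread, since their mean ± SD ranges overlapped, though MCM4 was the higher in all 6 libraries. The order rests on the length used, since the deposited lengths of 9852 bases for MCM4 and 7268 bases for MCM5 exceed their principal transcripts in GENCODE 29, of 4183 and 3534 bases. With principal transcript lengths, a choice made after the data were seen, MCM4 moved above MCM3 at 102 FPKM, MCM7 was at 140 and MCM5 at 39.3 FPKM, and the ratio of MCM7 to MCM5 was 3.56 in place of 4.94. By group, MCM7 was at 92.7 ± 8.41 FPKM in palmatine and 96.2 ± 3.61 FPKM in control cells by the deposited length (SD, n = 3 each), and the rank of the 6 subunits was the same in both group means.

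In the GINS complex the deposited lengths gave GINS2 17.1, GINS1 14.1, GINS3 7.48 and GINS4 4.55 FPKM, and principal lengths put GINS1 first at 34.8 FPKM, with GINS2 at 20.6 FPKM. GINS4 was the lowest by both. In the clamp loader RFC3 at 39.7 FPKM and RFC2 at 35.7 FPKM did not differ beyond their spread by the deposited lengths. RFC3 was still the higher in all 6 libraries. RFC1, the large subunit, was lowest at 12.7 FPKM. Principal lengths put RFC4 highest, at 57.1 FPKM, and left RFC1 lowest. In ORC, ORC1 at 18.8 FPKM and ORC3 at 17.7 FPKM led by the deposited lengths without differing beyond their spread, and ORC6 led by principal lengths at 42.1 FPKM. ORC4 was the lowest by both.

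**Figure D5:**
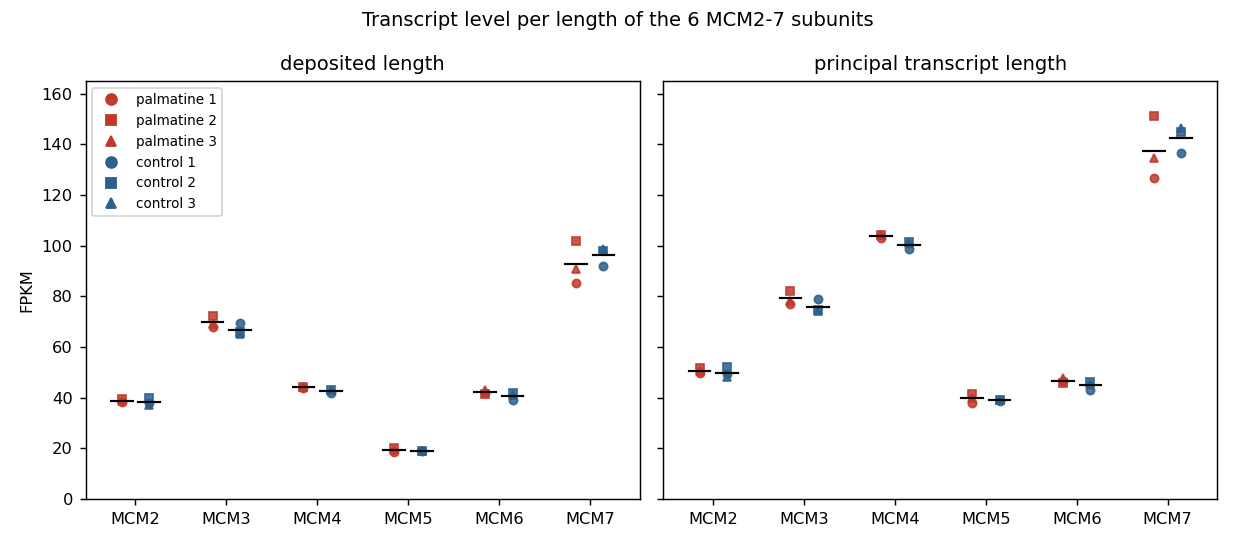
FPKM of the 6 MCM2-7 subunits in each library (red, palmatine; blue, control; bars are group means), with the deposited gene length (left) and with the length of the principal transcript (right). MCM7 is highest and MCM5 lowest in both panels, and MCM4 lies below MCM3 at 43.4 FPKM on the left and above it at 102 FPKM on the right, as means over all libraries.

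Some members share exonic sequence with other coding genes or have pseudogene copies, and the sources used here do not name the strand setting of the counting. In GENCODE 29, ENOSF1 on the opposite strand covers 39.2% of the exonic bases of TYMS, and INTS8 on the opposite strand covers 37.0% of those of CCNE2. PRIM1 shares 14.9% with AC117378.1, RRM2 20.2% with AC007240.1 and MCM7 8.94% with AP4M1. Named pseudogenes exist for PCNA, RRM2, TYMS, FEN1 and RFC3. The levels of these genes are therefore uncertain, to an extent that was not tested. The overlaps of TYMS, CCNE2 and MCM7 are on the opposite strand and would matter if counting ignored the strand. Those of PRIM1 with AC117378.1 and of RRM2 with AC007240.1 are on the same strand, and AC007240.1 is not among the deposited genes.

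The surrounding pathway was read from 7 lists with 138 genes outside the 32, of which 136 were tested. CDKN1C and RNASEH2A had at most 2 and 9 counts in a library and were not tested. The edgeR test called 0 of the 136 at an adjusted p of 0.05, and DESeq2 and limma-voom also called 0. At an unadjusted p of 0.05, edgeR counted 3 higher and 7 lower, where 5.13% of all tested genes were higher and 4.69% lower.

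Among the RB-E2F pathway and G1 regulators, 28 genes were tested and the median log2 fold change was 0.01. CDKN2D, an inhibitor of CDK4 and CDK6, had 3.86, 3.20 and 4.31 CPM in palmatine and 4.93, 5.34 and 5.27 CPM in control libraries (log2 fold change -0.45, adjusted p = 0.455 in edgeR). The repressor E2F6 was at 22.5 ± 0.731 CPM in palmatine and 26.4 ± 1.85 CPM in control cells, and the pocket protein RBL2 had a log2 fold change of 0.19. Of the origin and helicase factors, ORC5 had a log2 fold change of -0.21, the licensing inhibitor GMNN -0.16 and the origin firing factor TICRR 0.21, with a median of 0.02 over 16 genes. Of the polymerase and fork factors, RPA3 of the single-strand binding complex had -0.27, the polymerase epsilon catalytic subunit POLE 0.25 and the fork protection factor TIPIN -0.18, with a median of 0.00 over 25 genes.

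The nucleotide supply list had a median of -0.08 over 13 genes, with DCTPP1 at -0.20, SAMHD1, a dNTP hydrolase, at 0.12 and DUT, the dUTPase, at -0.16. In replication-coupled chromatin, the histone mRNA binder SLBP was at -0.21, the maintenance methyltransferase DNMT1 at 0.21 and CHAF1B, the partner of CHAF1A, at 0.14, with a median of 0.03 over 12 genes. In replication stress and repair, FANCD2 was at 0.19, RAD51AP1 at -0.14 and the checkpoint kinase CHEK1 at -0.10, with a median of 0.01 over 17 genes. For these genes and those of the origin and fork lists, the adjusted p in edgeR was 0.455 to 0.499.

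The G2/M and mitosis list had the lowest median of the 7, -0.10 over 25 genes, with 20 negative, beside -0.02 and 21 of 32 for the G1/S and replication genes. UBE2C, the ubiquitin-conjugating enzyme of the anaphase-promoting complex, had 120, 142 and 126 CPM in palmatine and 142, 149 and 166 CPM in control libraries (log2 fold change -0.23, adjusted p = 0.455 in edgeR). The mitotic cyclin CCNB1 was at -0.20 and the transcription factor FOXM1 at 0.19. With the length trend removed, UBE2C was at -0.02, CCNB1 at -0.09 and FOXM1 at 0.20. Whether the 2 groups of genes differ in their response was not tested, since the genes share libraries and are not replicates.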

How the data were processed

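Poly(A) RNA of 6 HaCaT samples was sequenced, 3 labelled palmatine and 3 labelled control, and groups were taken from the titles and treatment labels. The table deposited by the authors holds raw read counts per gene and FPKM per gene, per the file headers. The submitters' processing notes name HISAT2 2.1.0 and HTSeq 0.9.1; build and annotation are not given in the sources used. A dUTP step for stranded libraries is described in the labels' protocols, but not the strand setting of counting. Coordinates follow GRCh38, from gene identifiers found in GENCODE 29. The members and gene lists were chosen with earlier results of these data known.

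Genes were filtered with filterByExpr (minimum count 10), scaled with TMM and tested with the edgeR 4.0.16 quasi-likelihood test (robust, no covariates) in R 4.3.3. Two-sided p-values were adjusted by Benjamini-Hochberg over all 12356 tested genes, with a threshold of 0.05. Values per library are given for the 2 members of each role with the smallest p and for MCM2 to MCM7, and from each list the 3 genes with the smallest p are named. Neighbours in a complex were said to differ where the order held in all 6 libraries and the mean ± SD ranges were apart. Alternatives covered other factors, DESeq2 1.42.0, limma 3.58.1 (voom, and log2 FPKM or TPM with pseudocounts of 1 and 0.1), other count filters, a replicate block, each library left out and loess trends (span 0.3) on length or GC removed. The GC trends, the principal transcript lengths and the 1.5-fold and 1.2-fold limits were added after the data were seen. The edgeR fit was tested on simulated data with known fold changes. Total counts were 12908646 to 17218171 per library, and the median standard error of a member's log2 fold change was 0.0783.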

Additional observations from a re-analysis of the deposited data

How the results depend on the processing

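No G1/S or replication gene and no gene of the 7 pathway lists was called under any setting tried. The lowest adjusted p of a member was 0.086, from limma on log2(TPM + 1). E2F2 shared that value with E2F1, ORC1, CDC6, MCM3, MCM4, MCM6, RRM2, CHAF1A and UHRF1. Over 14 alternatives, 33 of 448 member values changed sign relative to the median gene, and 24 of 192 did with a library left out, in 15 members in all. The number of genes called over the whole table, 5 in the edgeR fit, was 14 with DESeq2, 8 without a count filter and 9 with the replicate block, and 5 to 6 with a library left out. Members at an unadjusted p of 0.05, 0 in the edgeR fit, were 1 with library size alone, without a count filter, on log2(FPKM + 1), on log2(FPKM + 0.1), and with the length, the GC or both trends removed. In those fits, 13.9%, 8.96%, 12.3%, 12.3%, 10.4%, 10.7% and 11% of all tested genes passed, in the same order. They were 20 of 32 on log2(TPM + 1), all higher, where 39.1% of all tested genes passed and the median over all tested genes also moved to 0.18. With a library left out they were 0 to 6. They were 6 without palmatine 2 (26% of all tested genes), 4 without control 1 (21.9%), and 0 without palmatine 1, palmatine 3, control 2 or control 3, where 2.42%, 2.88%, 4.35% and 2.92% of all tested genes passed. The median log2 fold change of the members, -0.02, was 0.0393 with library size alone, 0.0368 on log2(FPKM + 1), 0.0393 on log2(FPKM + 0.1) and 0.175 on log2(TPM + 1), beside medians over all tested genes of 0.06, 0.04, 0.06 and 0.18, and -0.06 to 0.00 with a library left out. The ratio of MCM7 to MCM5, 4.94, was 3.56 with principal transcript lengths. The share of members with an E2F match was 78.6% from 100 bases before to 50 after the start.

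Deviations from the group means correlated at 0.399 for number 1, the highest of all pairs, 0.178 for number 2 and -0.0963 for number 3. Palmatine 2 correlated best with control 3 (0.323). With 3 libraries per group such deviations depend on each other, so they cannot settle whether the replicate numbers pair the samples. With the number as a replicate block, 5 of 32 members reached an unadjusted p of 0.05, 2 of them higher, against 20.3% of all tested genes. The cause of these shifts was not tested. Differences within the intervals given are not excluded at this depth with 3 libraries per group. The intervals are not adjusted for the number of genes tested, so they do not give the size that the test could call. CDKN2D had an interval of -0.78 to -0.11 and was not called (adjusted p = 0.455 in edgeR).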
